A study of Rattus norvegicus and Mus musculus with 34 samples.

Results

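The 45 genes described here serve the cell cycle and DNA replication. They were listed by gene symbol, and all 45 were found among the 20022 genes listed for the rat and among the 51912 gene rows listed for the mouse. By their known roles they form 9 groups of 1 to 12 genes. Rrm1, Rrm2, Tyms and Tk1 supply nucleotides, and E2f1, E2f8, Mybl2 and Foxm1 encode transcription factors. Cdc6, Cdt1, Mcm2 to Mcm7, Mcm10, Cdc45, Gins1 and Gins2 license origins and build the replicative helicase, and Pcna, Top2a and Uhrf1 act at the fork and on the copied chromatin. Ccne1, Ccne2, Ccna2, Ccnb1 and Ccnb2 encode cyclins and Cdk1 encodes a cyclin-dependent kinase. Aurka, Aurkb, Plk1, Bub1, Bub1b and Ttk encode mitotic kinases and checkpoint proteins, Cdc20 and Ube2c partners of the anaphase promoting complex, and Kif11, Kif20a, Kif23, Cenpf, Tpx2, Nusap1 and Birc5 proteins of the spindle and cytokinesis. Mki67 is the proliferation marker. Healing tissue of mixed cells was taken from a standardized bone defect in the mandible of male wild-type Sprague-Dawley rats aged 6 to 8 weeks. The inferior alveolar nerve, which carries sensation from the lower jaw, had been left intact (sensory nerve+) or had lost about 5 mm by transection (sensory nerve−), and tissue was taken at days 3, 7 and 14. All rats carried the defect and received penicillin daily for 3 days, and rats with obvious infection had been excluded. Each group held 4 rats except the sensory nerve+ group of day 3, which held 3, giving 23 in all. RAW264.7, a wild-type mouse macrophage line, was stimulated for 6 h with 100 ng/ml of lipopolysaccharide alone (LPS, 6 samples) or with 10 nM of calcitonin gene-related peptide, a neuropeptide of sensory nerves, as well (LPS+CGRP, 5 samples). The labels do not say whether the macrophage samples came from separate cultures, so their p-values measure the spread between samples, which may be technical.

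A cell that is about to divide loads the MCM helicase onto its replication origins, copies its DNA while enzymes supply nucleotides, and then condenses and separates the chromosomes on a spindle. The RNAs of these steps are made in waves. E2F factors drive the replication genes first, and the MYBL2 and FOXM1 proteins drive the mitotic genes later. Healing bone first holds inflammatory and stromal cells that multiply, and later bone-forming cells and matrix, so the summed RNA of these genes is commonly read as a sign of proliferation. In bulk tissue, fewer dividing cells and less of these RNAs per cell cannot be told apart.

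Depth lay between 14854389 and 18742274 expected counts per rat and between 55614185 and 71538840 reads per macrophage sample. Levels of a gene are given as CPM (counts scaled to a fixed library total) after scaling by TMM, the trimmed mean of M values, and differences as log2 fold changes ± SE. The 4 rats of the sensory nerve− group of day 7 had been deposited separately, without rats of any other group, so the separate table cannot be told apart from that group's day and transection. Marker genes of other tissues moved with the day: the summed CPM of 8 skeletal muscle genes lay between 19.2 and 464 in the 7 rats of day 3, between 1665 and 30664 at day 7 and between 218 and 21919 at day 14. The sum of 5 oral epithelium genes lay between 2.49 and 789 at day 3 with the nerve intact and between 32.5 and 485 with it transected. At day 7 it lay between 1.13 and 337 and between 0.544 and 7.62. At day 14 it lay between 0.748 and 5.69 and between 0.641 and 1.71. The 337 was that of rat 3 of the sensory nerve+ group of day 7. Rat 2 of the sensory nerve+ group of day 14 stood apart from its group, with a sum of 230.5 for skeletal muscle against 11237 to 21919 in the other 3 rats and a sum of 6372 for 9 neutrophil genes against 87.8 to 1636. The counts and medians of called members that rest on it are given with and without it. Macrophage markers summed to between 3482 and 3629 CPM in the RAW264.7 samples, although C1qa was at 0 in the LPS+CGRP samples, and those of lymphocytes, erythroid cells and fibroblasts to under 1 CPM.

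To show the kind of sequence in front of these genes, the 250 bases before the annotated start are given for 3 members, chosen as described under the processing. They are Mcm7, a subunit of the replicative helicase, Cdk1, the kinase that drives mitosis, and Cdc20, which activates the anaphase promoting complex. The sequences are from RefSeq, build GRCr8, which is not the build of the counts, and are written 5′ to 3′ on the strand of the gene. Mcm7 lies at chr12:22163179-22163428 on the minus strand, Cdk1 at chr20:19265043-19265292 on the plus strand and Cdc20 at chr5:137255800-137256049 on the minus strand. Capitals mark the motifs CCAAT, an E2F type (TTTCCCGC, TTTGGCGC, TTTCGCGC or TTTGCCGC) and a CHR type (TTTGAA or TTCGAA, known from mitotic genes), each searched on both strands. In Mcm7, the capitals next to the start hold an E2F type motif that runs into a CCAAT motif.
Mcm7: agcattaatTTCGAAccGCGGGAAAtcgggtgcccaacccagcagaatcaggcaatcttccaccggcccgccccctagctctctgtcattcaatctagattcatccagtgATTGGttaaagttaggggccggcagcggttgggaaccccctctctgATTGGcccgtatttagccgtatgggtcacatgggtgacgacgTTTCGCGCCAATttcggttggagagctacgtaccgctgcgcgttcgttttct
Cdk1: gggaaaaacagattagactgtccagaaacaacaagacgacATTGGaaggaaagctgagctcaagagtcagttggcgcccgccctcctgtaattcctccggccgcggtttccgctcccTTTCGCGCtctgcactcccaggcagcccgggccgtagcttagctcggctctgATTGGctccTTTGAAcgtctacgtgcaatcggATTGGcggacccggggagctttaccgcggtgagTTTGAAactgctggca
Cdc20: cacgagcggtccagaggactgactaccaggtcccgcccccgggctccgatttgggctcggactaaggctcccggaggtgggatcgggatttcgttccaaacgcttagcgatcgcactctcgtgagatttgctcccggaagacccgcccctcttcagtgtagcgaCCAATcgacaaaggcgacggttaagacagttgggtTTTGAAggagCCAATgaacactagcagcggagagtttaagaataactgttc
Of the 45 members, 34 had such a sequence among the 27457 genes of the table. CCAAT was found in 25 of these 34 and in 34.3% of all promoters. The E2F type was found in 7 of the 34, in Tyms, Mcm2, Mcm5, Mcm6, Mcm7, Gins1 and Cdk1, and in 1.81% of all. Of those 7, 5 belong to the licensing and helicase group, which had 10 such sequences, and none to the spindle group, which had 6. The CHR type was found in 11 of the 34, in Rrm1, Mcm2, Mcm7, Top2a, Ccnb2, Cdk1, Bub1b, Cdc20, Kif23, Birc5 and Mki67, and in 17.3% of all. That was 2 of the 10 sequences of the licensing group and 2 of the 6 of the spindle group. These are matches of letters and say nothing of binding.

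**Figure D1:**
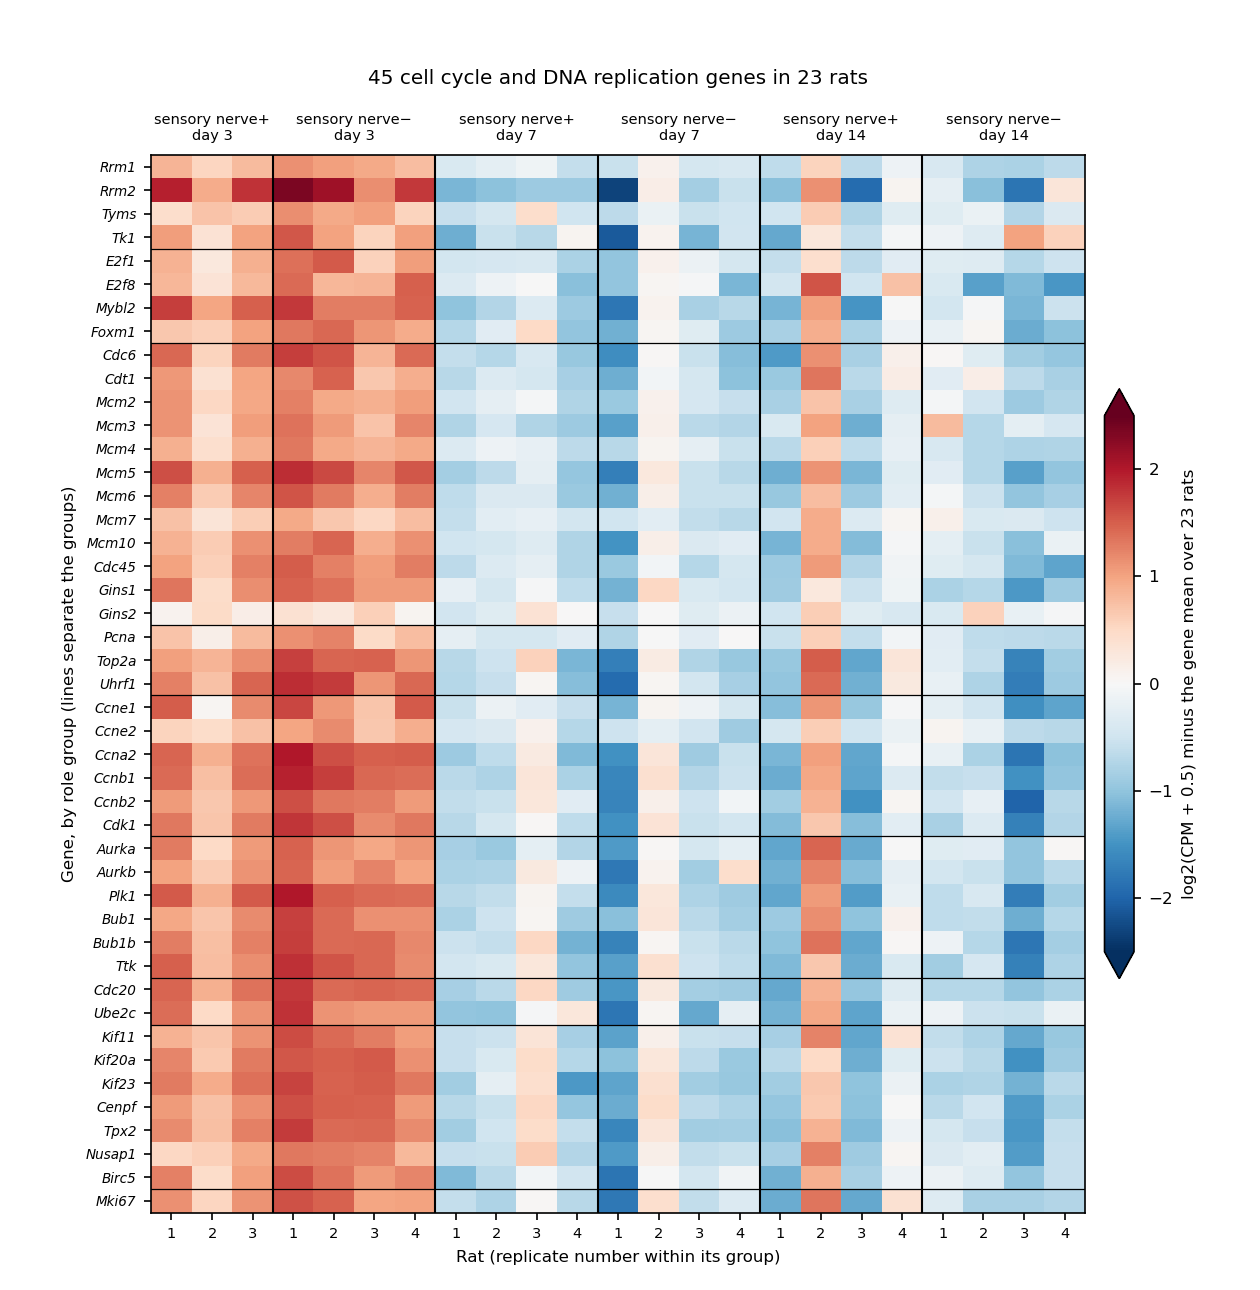
Level of each of the 45 genes (rows, by role group) in each of the 23 rats (columns, by group), as log2(CPM + 0.5) minus the mean of that gene over all rats. The 7 rats of day 3 are red in nearly every row, the rats of days 7 and 14 mostly blue, and rat 2 of the sensory nerve+ group of day 14 is red in most rows.

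The question of the time course was how the tissue changes from the acute phase to repair. In both nerve groups the cell cycle genes were higher at day 3 than at day 7. Among intact rats, all 45 had a higher fitted level at day 3 and 27 of 45 passed the test (edgeR's quasi-likelihood test, Benjamini-Hochberg adjusted p under 0.05), where 1.79% of all tested genes were called higher. The median difference was 1.39 on the log2 scale, a 2.62-fold higher level, against -0.05 over all tested genes. After transection, 43 of 45 were called higher, where 6.77% of all tested genes were, and the median was 1.80, or 3.49-fold, against 0.01. All 27 genes called with the nerve intact were called with it transected too. A test of the interaction of nerve and day, given further on, called none of the 45, so a member called in 1 nerve group alone is not shown to differ between them. The 3 rats of day 3 and the 4 of day 7 did not overlap in 43 members with the nerve intact, as in 13% of all genes tested. Among transected rats the 4 rats of each day did not overlap in 45 members, as in 12.6% of all genes. In the comparisons of days, a log2 fold change above 0 means a higher level at the earlier day.

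Supply of DNA building blocks rests on 4 members, of which 2 were called higher at day 3 with the nerve intact and 4 with it transected. Rrm2, the regulated subunit of ribonucleotide reductase, had the largest difference of all members in both nerve groups. In the sensory nerve+ rats it stood at 128, 63.01 and 117 CPM at day 3 and at 14.7, 16.01, 17.4 and 17.3 at day 7. The lowest rat of day 3 was well above the highest of day 7, and the difference was 6.07-fold (log2 fold change 2.60 ± 0.25, adjusted p = 0.00343). In the rats with a transected nerve it stood at 169.8, 146, 74.5 and 113 at day 3 and at 6.23, 37.2, 18.2 and 22.4 at day 7, a 6.01-fold difference with a wider error (log2 fold change 2.59 ± 0.51, adjusted p = 0.0218). Rrm1, the large subunit of the same enzyme, went from 152, 122 and 145 CPM at day 3 to 64.1, 70.6, 78.04 and 55.1 at day 7 with the nerve intact (log2 fold change 1.01 ± 0.16, adjusted p = 0.0179). Following nerve transection its values were 187, 172, 162 and 144 at day 3 and 56.4, 90.5, 61.6 and 63.3 at day 7 (log2 fold change 1.30 ± 0.17, adjusted p = 0.0140). The Rrm1 values of the 2 days did not overlap in either nerve group. Tyms, which makes thymidylate, passed the test with the nerve transected and missed it with the nerve intact. Its sensory nerve− values were 101, 86.4, 90.7 and 66.1 at day 3 and 28.02, 39.6, 30.2 and 31.6 at day 7 (log2 fold change 1.42 ± 0.17, adjusted p = 0.0140). In rats with an intact nerve they were 60.6, 72.8 and 69.05 and 29.6, 32.7, 60.6 and 31.5, where rat 3 of day 7 reached the lowest rat of day 3 to within 0.1 CPM (log2 fold change 0.74 ± 0.28, adjusted p = 0.160). Tk1, the thymidine salvage kinase, was 114, 70.6 and 110.5 CPM and then 23.2, 36.97, 33.5 and 57.1 with the nerve intact (log2 fold change 1.33 ± 0.32, adjusted p = 0.0551). It was 162, 110.0, 80.97 and 111 and then 12.3, 58.1, 24.04 and 38.9 with it transected (log2 fold change 1.80 ± 0.44, adjusted p = 0.0417).

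Among the 4 transcription factors, Mybl2 and E2f1 were called higher at day 3 with the nerve intact and all 4 with it transected. Mybl2, which helps to switch on genes of mitosis, was 53.2, 31.6 and 45.4 CPM at day 3 and 7.56, 9.23, 12.3 and 8.19 at day 7 with the nerve intact (log2 fold change 2.16 ± 0.26, adjusted p = 0.00618). With the nerve transected it was 55.1, 39.2, 38.9 and 44.6 and 4.15, 16.7, 8.75 and 9.62 (log2 fold change 2.19 ± 0.37, adjusted p = 0.0164). In both nerve groups its lowest rat of day 3 lay above its highest rat of day 7, and the differences were 4.48-fold and 4.55-fold. Foxm1, a driver of late cell cycle genes, was at 29.5, 28.04 and 37.3 and then 11.1, 15.1, 26.3 and 9.03 with the nerve intact, where rat 3 of day 7 came close to day 3 and the test was not passed (log2 fold change 0.98 ± 0.37, adjusted p = 0.164). It was at 46.6, 50.7, 40.2 and 35.6 and 7.69, 19.03, 14.9 and 9.62 with it transected (log2 fold change 1.76 ± 0.29, adjusted p = 0.0151). E2f8, an E2F repressor, was 13.1, 9.12 and 12.98 and then 5.55, 6.47, 7.06 and 3.21 with the nerve intact (log2 fold change 1.02 ± 0.32, adjusted p = 0.103). After transection it was 19.9, 13.1, 13.2 and 20.99 and 3.37, 7.39, 6.94 and 2.95 (log2 fold change 1.70 ± 0.35, adjusted p = 0.0255).

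Origin licensing and the replicative helicase formed the largest group, and 11 of its 12 members were called higher at day 3 in each nerve group. The exception was Gins2 both times. Mcm4, a helicase subunit, was 90.5, 64.7 and 90.3 CPM at day 3 and 38.2, 44.4, 41.8 and 30.8 at day 7 with the nerve intact (log2 fold change 1.02 ± 0.18, adjusted p = 0.0242). Among transected rats it was 121, 93.8, 87.8 and 93.9 and 29.6, 50.8, 41.6 and 32.9 (log2 fold change 1.36 ± 0.19, adjusted p = 0.0140). The differences were 2.03-fold and 2.57-fold, with no overlap between days. Mcm5, another of the 6 subunits, had a larger fitted difference. It went from 84.2, 50.5 and 76.8 to 14.9, 16.998, 22.98 and 13.7 with the nerve intact, a 3.96-fold difference (log2 fold change 1.98 ± 0.26, adjusted p = 0.00841). It went from 98.2, 86.3, 63.9 and 80.5 to 7.92, 32.8, 18.3 and 16.6 with it transected (log2 fold change 2.13 ± 0.38, adjusted p = 0.0183). Mcm7 varied little between rats. It was 95.6, 78.9, 70.9 and 84.4 at day 3 and 34.6, 40.6, 31.8 and 30.2 at day 7 with the nerve transected (log2 fold change 1.27 ± 0.13, adjusted p = 0.0140), and 82.5, 61.5 and 75.2 against 32.3, 40.7, 42.7 and 35.4 with it intact (log2 fold change 0.90 ± 0.16, adjusted p = 0.0244). Cdc6, which loads the helicase onto origins, was 20.9, 11.2 and 19.01 and then 4.71, 4.33, 5.52 and 3.63 with the nerve intact (log2 fold change 1.85 ± 0.28, adjusted p = 0.0149). In the rats with a transected nerve it was 25.8, 23.1, 13.8 and 20.8 and 2.19, 7.56, 4.89 and 3.27 (log2 fold change 2.22 ± 0.39, adjusted p = 0.0171). Gins1 and Gins2 encode subunits of GINS, a part of the active helicase. Gins1 was 13.5, 7.02 and 11.9 and then 4.27, 3.55, 4.92 and 3.04 with the nerve intact (log2 fold change 1.39 ± 0.31, adjusted p = 0.0463), and 14.7, 13.7, 11.01 and 10.98 against 1.91, 7.39, 3.71 and 3.53 with it transected (log2 fold change 1.61 ± 0.38, adjusted p = 0.0375). Gins2 was 17.3, 22.7 and 18.2 at day 3 and 11.4, 13.04, 20.9 and 16.2 at day 7 with the nerve intact, and the days overlapped (log2 fold change 0.28 ± 0.25, adjusted p = 0.551, 95% interval -0.31 to 0.86). Following nerve transection it was 21.2, 19.5, 24.6 and 17.01 and 10.6, 16.04, 13.1 and 14.6 (log2 fold change 0.61 ± 0.18, adjusted p = 0.0711, 95% interval 0.19 to 1.03). Gins2 had the smallest difference of the 45 members in both nerve groups. Cdt1, Mcm2, Mcm3, Mcm6, Mcm10 and Cdc45 were called higher at day 3, by 2.30-fold for Mcm2 to 3.01-fold for Mcm6 with the nerve intact and by 2.77-fold for Mcm2 to 3.72-fold for Cdc45 with it transected.

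At the fork and on the new chromatin, Pcna, the sliding clamp of the polymerases, was 124, 84.02 and 132 CPM and then 64.1, 55.7, 55.7 and 62.3 with the nerve intact (log2 fold change 0.88 ± 0.18, adjusted p = 0.0341). With the nerve transected it was 167, 180.1, 106 and 129 and then 44.5, 74.7, 61.8 and 76.1 (log2 fold change 1.19 ± 0.22, adjusted p = 0.0194). Pcna was thus higher in each rat of day 3 than in any rat of day 7. Top2a, the topoisomerase that untangles copied chromosomes, was 119.7, 107 and 132 and then 36.4, 40.9, 87.97 and 26.5 with the nerve intact, where rat 3 of day 7 lay far above its group and the test was not passed (log2 fold change 1.25 ± 0.40, adjusted p = 0.111). It was 194, 162, 164 and 127 and then 17.7, 67.5, 34.9 and 30.3 with the nerve transected (log2 fold change 2.11 ± 0.38, adjusted p = 0.0183). Uhrf1, which carries DNA methylation over to the new strand, was called higher at day 3 by 3.18-fold and 4.69-fold.

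Of Cdk1 and the cyclins, 4 of 6 were called higher at day 3 with the nerve intact, Ccne1 and Ccne2 being the others, and 6 of 6 with it transected. Cdk1 stood at 70.6, 45.8 and 69.4 CPM at day 3 and at 17.1, 20.6, 28.6 and 17.98 at day 7 with the nerve intact (log2 fold change 1.499 ± 0.25, adjusted p = 0.0195). After transection it stood at 97.4, 87.01, 63.9 and 70.3 and at 9.49, 35.5, 18.9 and 20.3 (log2 fold change 1.93 ± 0.36, adjusted p = 0.0197). The days did not overlap, and the differences were 2.83-fold and 3.80-fold. Ccne2, a cyclin of the entry into replication, was 42.01, 47.9, 33.8 and 39.7 and then 14.4, 17.7, 14.9 and 11.1 with the nerve transected (log2 fold change 1.496 ± 0.18, adjusted p = 0.0140), and 31.3, 28.995 and 35.3 against 15.5, 16.1, 22.5 and 12.6 with it intact (log2 fold change 0.88 ± 0.22, adjusted p = 0.0620). Ccna2, Ccnb1 and Ccnb2, cyclins of replication and mitosis, were called higher by 2.25-fold to 3.32-fold with the nerve intact and by 3.37-fold to 4.66-fold with it transected.

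Of the 15 kinase, checkpoint, anaphase and spindle genes of mitosis, 5 were called higher at day 3 with the nerve intact and 14 with it transected. Among the 6 kinases and checkpoint genes, Aurka, Plk1, Bub1 and Ttk were called in both nerve groups, Bub1b with the nerve transected, and Aurkb in neither (log2 fold change 1.19 ± 0.31, adjusted p = 0.0664 with the nerve intact, log2 fold change 1.54 ± 0.44, adjusted p = 0.0642 with it transected). Bub1, a kinase of the spindle checkpoint, was 58.2, 47.6 and 67.7 CPM and then 16.8, 20.3, 30.4 and 15.7 with the nerve intact (log2 fold change 1.42 ± 0.27, adjusted p = 0.0281). Among transected rats it was 96.7, 79.2, 65.7 and 65.2 and then 14.04, 36.3, 18.2 and 16.1 (log2 fold change 1.86 ± 0.31, adjusted p = 0.0158). Its days did not overlap. Cdc20 and Ube2c, the partners of the anaphase promoting complex, passed the test with the nerve transected and missed it with the nerve intact. Cdc20 was 56.3, 38.2 and 52.8 and then 11.2, 12.5, 29.1 and 10.7 with the nerve intact, again with rat 3 of day 7 above the rest (log2 fold change 1.56 ± 0.40, adjusted p = 0.0646). It was 70.2, 54.7, 56.6 and 55.01 and then 7.13, 23.98, 11.04 and 10.7 with the nerve transected (log2 fold change 2.17 ± 0.35, adjusted p = 0.0147).

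For the 7 spindle and cytokinesis genes, 1 was called higher at day 3 with the nerve intact, Birc5, a guard against cell death that also serves chromosome segregation, and all 7 with it transected. Tpx2, which nucleates spindle microtubules, was 76.8, 57.5 and 81.7 CPM and then 18.4, 23.7, 46.6 and 22.3 with the nerve intact (log2 fold change 1.31 ± 0.35, adjusted p = 0.0692). In the rats with a transected nerve it was 115, 91.3, 92.5 and 77.8 and then 10.6, 41.7, 18.3 and 18.6 (log2 fold change 2.09 ± 0.39, adjusted p = 0.0195). The median difference of the 7 genes was 1.26 with the nerve intact and 1.90 with it transected. Mki67, the antigen by which dividing cells are stained in tissue, was 175, 116 and 174 at day 3 and 52.2, 46.5, 81.1 and 48.9 at day 7 with the nerve intact (log2 fold change 1.38 ± 0.26, adjusted p = 0.0283). Following nerve transection it was 241, 220.3, 158 and 159 and 22.6, 106, 51.8 and 62.4 (log2 fold change 1.69 ± 0.42, adjusted p = 0.0418). Mki67 was thus 2.60-fold and 3.22-fold higher at day 3, without overlap.

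**Figure D2:**
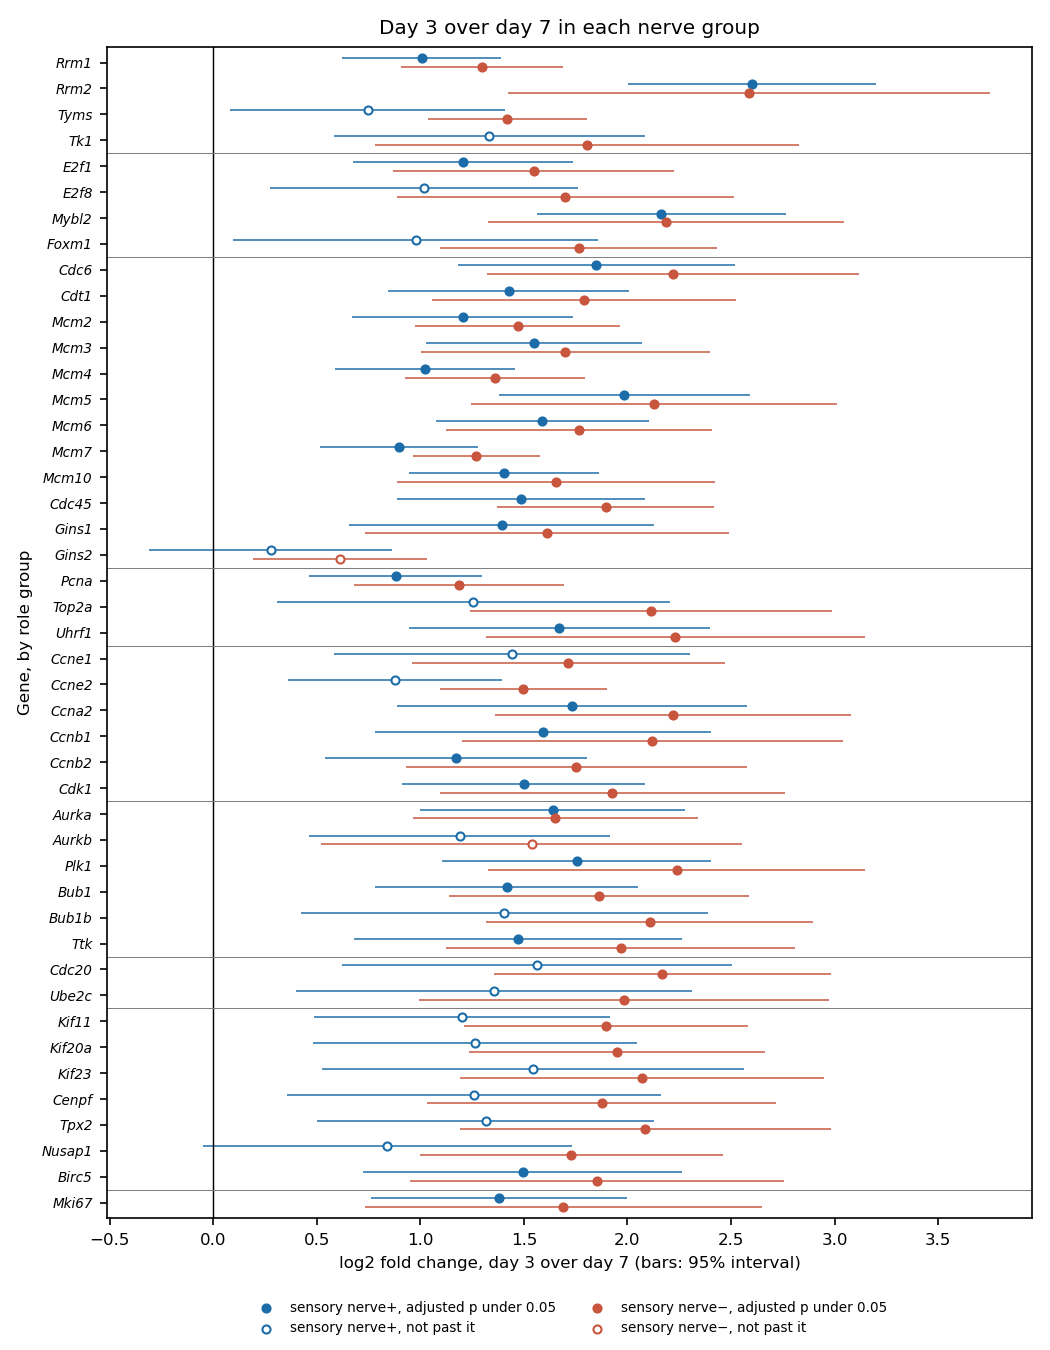
Log2 fold change of each member, day 3 over day 7, in the sensory nerve+ (blue) and sensory nerve− (red) groups, with 95% intervals as bars and filled points where the adjusted p was under 0.05. Points lie right of 0 for all 45 members in both groups, Rrm2 farthest out and Gins2 nearest to 0, and 18 blue and 2 red points are open.

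The number of calls in these comparisons depended on single rats, while no fit with 1 rat left out turned the median. With the nerve intact, the calls fell from 27 to 6, 3, 6, 6 and 17 without rats 1 and 3 of day 3 and rats 1, 2 and 4 of day 7, and came to 40 without rat 3 of day 7, which was the highest of its group in 38 members. The median stayed between 1.30 and 1.61. With the nerve transected, no member was called without rat 1 of day 3 or without rat 3 of day 7, and 24 and 26 were called without rat 2 of day 3 and rat 4 of day 7. The median stayed between 1.59 and 2.09. The summed skeletal muscle genes were higher in every rat of day 7 than in any rat of day 3, as given above, and their part in these differences was not tested. Rat 3 of day 7 with the nerve intact had the oral epithelium sum of 337 given above, and the part of that tissue was not tested.

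Other genes of replication and mitosis were also higher at day 3. Of 27 further replication genes, 16 were called with the nerve intact and 25 with it transected, where 1.79% and 6.77% of all genes were called higher. Gmnn, whose protein blocks relicensing of copied origins, was called with the nerve intact (log2 fold change 1.74 ± 0.24, adjusted p = 0.0104), and Fen1, the flap nuclease of the lagging strand, in both nerve groups (log2 fold change 1.36 ± 0.20, adjusted p = 0.0123 and log2 fold change 1.64 ± 0.20, adjusted p = 0.0140). Of 32 further mitotic genes, 15 and 31 were called higher. Mad2l1, of the spindle checkpoint, had the smallest p with the nerve intact (log2 fold change 1.49 ± 0.23, adjusted p = 0.0146), and Incenp, a partner of Aurora kinases, with it transected (log2 fold change 1.51 ± 0.21, adjusted p = 0.0140). The counts of both lists depended on single rats as well. With the nerve intact, 0 genes of either list were called without rat 3 of day 3. With the nerve transected, 0 were called without rat 1 of day 3 or without rat 3 of day 7. Unadjusted p-values moved less. In that fit with the nerve intact, 23 replication and 30 mitotic genes had an unadjusted p under 0.05, against 26 and 30 with all rats. With the nerve transected, 26 and 31 did in both of those fits, as with all rats. The share of all genes in these fits is not given here.

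Inhibitors of the cell cycle were split in direction. At day 3 the fitted level was higher in 5 and lower in 8 with the nerve intact, and 6 and 7 with it transected. Of 13 inhibitors and pocket proteins, 1 was called higher and 1 lower at day 3 with the nerve intact, where 1.79% of all genes were called higher and 4.88% lower. Cdkn1a, the p53 target that blocks cyclin-dependent kinases, was 58.4 ± 11.8 CPM (mean ± SD) at day 3 and 233 ± 103 at day 7 and was thus lower at day 3 (log2 fold change -2.04 ± 0.41, adjusted p = 0.0327). Rbl1, a pocket protein that is itself an E2F target, was higher at day 3 (log2 fold change 0.91 ± 0.20, adjusted p = 0.0406). With 1 of the 7 rats left out in turn, Cdkn1a lost its call in 6 fits and Rbl1 in 5, and neither changed sign. After transection, 3 of the 13 were called higher and 0 lower, where 6.77% of all genes were called higher and 3.68% lower, Wee1, the kinase that holds Cdk1 inactive (log2 fold change 1.07 ± 0.15, adjusted p = 0.0140), and Cdkn2c (log2 fold change 1.08 ± 0.25, adjusted p = 0.0369) among them. Of 8 D cyclins, G1 kinases and Myc, none passed with the nerve intact. An unadjusted p under 0.05 was reached by 4 of them, and the share of all genes at that level is not given here. With the nerve transected, 3 of the 8 were called higher at day 3, where 6.77% of all genes were, Cdk2 (log2 fold change 0.88 ± 0.13, adjusted p = 0.0140) and Myc (log2 fold change 1.16 ± 0.18, adjusted p = 0.0144) among them.

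From day 3 to day 14 the 2 nerve groups gave different counts of calls, and 1 rat decided that of the sensory nerve+ group. Among transected rats, 43 of 45 members were called higher at day 3 than at day 14, where 14.6% of all tested genes were called higher, and the median was 2.03, or 4.07-fold, against 0.05 over all genes. The days did not overlap in 42 members, as in 16.5% of all genes. Tk1 and Gins2 were the members not called. Among intact rats, all 45 members had a higher fitted level at day 3, by a median of 0.99, and 0 were called by edgeR, where 3.09% of all genes were called higher. An unadjusted p under 0.05 was reached by 16 of 45, near the 28.2% of all genes. DESeq2 called 7, and the share of all genes that it called is not given here. The days did not overlap in 8 members, as in 14.1% of all genes, and in 44 members without rat 2 of day 14, as then in 25.2% of all genes.

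Rat 2 of the sensory nerve+ group of day 14 was the highest of its 4 rats in all 45 members, by 1.26 to 2.83 times the next rat. Without it, 38 of 45 members were called higher at day 3, where 9.39% of all genes were, with a median of 1.58 or 2.99-fold. Leaving out the rat that is highest in every member raises this difference by itself. The fits with 1 rat left out in turn called 0 to 38, so this one gave the most calls. In 37 members rat 2 lay above the lowest sensory nerve+ rat of day 3, and in 11 above each of them. Mki67 shows this: the 4 rats of day 14 stood at 33.2, 201, 32.4 and 104 CPM, so that rat 2 exceeded every sensory nerve+ rat of day 3. Mki67 was 92.6 ± 79.7 (mean ± SD) in this group and 50.2 ± 8.80 with the nerve transected, where the 4 rats stood at 63.3, 45.1, 45.01 and 47.5. Top2a was 30.5, 168, 23.7 and 73.2 at day 14 with the nerve intact and 48.9, 38.9, 18.1 and 32.05 with it transected. As given above, this rat also had the most neutrophil marker RNA and the least skeletal muscle marker RNA of its group, and the part of either was not tested. In the sensory nerve− group of day 14, rats 1 and 4 had skeletal muscle sums of 218 and 263. Only rat 4 of the sensory nerve− group had a higher sum at day 3, of 464. Erythroid genes summed to 252484 and 362044 CPM in rats 1 and 4 of day 14, against at most 184137 at day 3. Mki67 in those rats of day 14 was 63.3 and 47.5 CPM, below every rat of day 3. The part of either tissue was not tested.

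**Figure D3:**
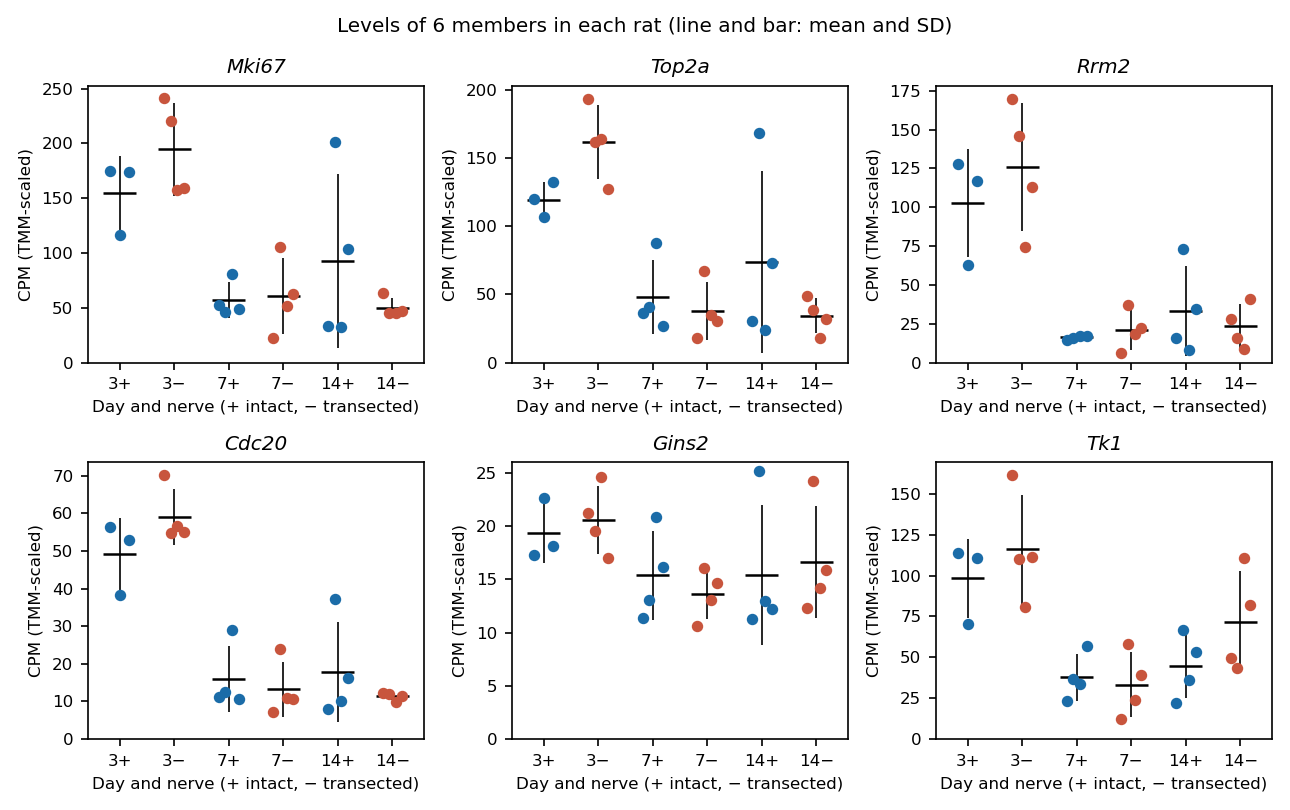
CPM of 6 members in each rat by day (3, 7, 14) and nerve (+ intact, blue; − transected, red), with the mean as a horizontal line and the SD as a bar. Mki67, Top2a, Rrm2 and Cdc20 are high at day 3 and mostly low later, with rat 2 of the 14+ group high, the days overlap for Gins2, and Tk1 is spread widely at day 14 with the nerve transected.

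The smallest p-values of day 3 against day 14 were those of mitotic genes in the sensory nerve− group. Cdc20 was 70.2, 54.7, 56.6 and 55.01 CPM at day 3 and 12.1, 12.1, 9.97 and 11.5 at day 14, a 5.27-fold difference with a 95% interval of 4.29 to 6.47 (log2 fold change 2.40 ± 0.13, adjusted p = 0.000550). Kif23, a kinesin of cytokinesis, was 63.9, 54.9, 56.3 and 49.4 and then 10.97, 11.3, 8.32 and 11.99 (log2 fold change 2.43 ± 0.15, adjusted p = 0.000672). The lowest rat of day 3 was more than 4 times the highest rat of day 14 in both genes. Kif11, the kinesin that pushes spindle poles apart, was 78.9, 68.4, 62.04 and 52.6 and then 16.3, 14.6, 10.1 and 12.7 (log2 fold change 2.31 ± 0.19, adjusted p = 0.00138). Ccnb1, the mitotic cyclin, had the largest difference of the 45 at 5.99-fold (log2 fold change 2.58 ± 0.24, adjusted p = 0.00159). By role, 3 of 4 nucleotide genes, 4 of 4 factors, 11 of 12 licensing genes, 3 of 3 fork genes, 6 of 6 cyclins with Cdk1, 6 of 6 kinases, 2 of 2 partners of the anaphase promoting complex, 7 of 7 spindle genes and Mki67 were called higher at day 3.

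Several other members had the same course with the nerve transected. Day 14 values were 63.7, 48.8, 48.2 and 53.1 CPM for Rrm1 (log2 fold change 1.66 ± 0.14, adjusted p = 0.00138). They were 36.5, 29.4, 28.4 and 28.7 for Mcm4 (log2 fold change 1.72 ± 0.15, adjusted p = 0.00138). They were 15.7, 22.1, 8.32 and 16.7 for Cdk1 (log2 fold change 2.37 ± 0.28, adjusted p = 0.00254). Each of these was below every rat of day 3. Pcna was 62.1, 48.3, 47.5 and 46.9 (log2 fold change 1.53 ± 0.19, adjusted p = 0.00293), Bub1 18.7, 18.9, 12.3 and 17.9 (log2 fold change 2.21 ± 0.19, adjusted p = 0.00138) and Tpx2 24.9, 22.6, 11.9 and 22.3 (log2 fold change 2.23 ± 0.24, adjusted p = 0.00213). Rrm2 was 28.3, 15.8, 8.98 and 40.9, with a wide spread between rats (log2 fold change 2.45 ± 0.47, adjusted p = 0.0109). Tk1 did not follow. It stood at 49.8, 43.6, 111 and 81.9 at day 14, so that rats 3 and 4 lay at or near the values of day 3 (log2 fold change 0.72 ± 0.33, adjusted p = 0.143). The summed CPM of 6 erythroid genes was 781288 in rat 3 and 362044 in rat 4, against 252484 and 1710 in rats 1 and 2, and its part in the Tk1 values was not tested. Gins2 was 12.3, 24.2, 14.2 and 15.9, overlapping day 3 (log2 fold change 0.34 ± 0.23, adjusted p = 0.307).

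In the sensory nerve+ rats, Gins1 had the smallest p of day 3 against day 14. It was 2.46, 6.08, 3.27 and 4.58 CPM at day 14 (log2 fold change 1.36 ± 0.38, adjusted p = 0.0753), and below each rat of day 3. Without rat 2 of day 14 its difference was 1.59 ± 0.37 (adjusted p = 0.0315). Rrm2 at 15.8, 73.1, 8.39 and 34.7 (log2 fold change 1.61 ± 0.69, adjusted p = 0.183) moved from not called to called without that rat (2.33 ± 0.57, adjusted p = 0.0365). Mki67 was called in neither fit (log2 fold change 0.71 ± 0.65, adjusted p = 0.515, and 1.401 ± 0.51, adjusted p = 0.1005 without it). Outside the members, 2 of 32 mitotic genes were called higher at day 3, where 3.09% of all genes were, Anln, a scaffold of the cleavage furrow (log2 fold change 2.03 ± 0.22, adjusted p = 0.0225), and Melk (log2 fold change 1.69 ± 0.30, adjusted p = 0.0393). Of 27 replication genes 0 were called, and 9 had an unadjusted p under 0.05, near the 28.2% of all genes. Without rat 2 of day 14, 28 of 32 and 22 of 27 were called higher, where 9.39% of all genes were. In the rats with a transected nerve 29 of 32 and 27 of 27 were called higher, Anln by 8.26-fold (log2 fold change 3.05 ± 0.17, adjusted p = 0.000550). Cdk4, the kinase that D cyclins activate, was higher at day 3 in both nerve groups (log2 fold change 0.80 ± 0.13, adjusted p = 0.0342 and log2 fold change 0.96 ± 0.17, adjusted p = 0.00936). Of the 13 inhibitors and pocket proteins, 1 was called lower at day 3 with the nerve intact, the pocket protein Rb1 (log2 fold change -0.64 ± 0.14, adjusted p = 0.0495), where 2.69% of all genes were called lower. After transection 3 were called higher and 3 lower, where 14.6% of all genes were called higher and 8.89% lower. With 1 of the 7 sensory nerve+ rats left out in turn, Rb1, Cdk4 and Melk each lost the call in 6 fits and Anln in 4.

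Between day 7 and day 14 no member was called in either nerve group. In rats with an intact nerve, edgeR called 0 of 45, where 0.0202% of all genes were called in either direction, and 0 had an unadjusted p under 0.05, where 9.42% of all genes did. DESeq2 also called 0. The fitted level was lower at day 7 in 44 members, by a median of -0.36, but without rat 2 of day 14 it was higher in 35 with a median of 0.17. E2f8 had the smallest p, at 5.55, 6.47, 7.06 and 3.21 CPM at day 7 and 5.03, 22.3, 4.94 and 12.3 at day 14 (log2 fold change -1.01 ± 0.53, adjusted p = 0.574, and -0.43 ± 0.43 without rat 2). Rats 2 and 4 of day 14 stood above all rats of day 7 in E2f8. Kif20a, a kinesin of late mitosis, was the member with a higher fitted level at day 7, at 18.4, 21.2, 37.9 and 16.5 and 16.96, 38.98, 11.5 and 22.3 (log2 fold change 0.06 ± 0.42, adjusted p = 0.982). Following nerve transection, edgeR called 0 of 45, where 0.0138% of all genes were called, 1 member had an unadjusted p under 0.05, where 23.5% of all genes did, and DESeq2 called 0. That member was Tk1, at 12.3, 58.1, 24.04 and 38.9 and then 49.8, 43.6, 111 and 81.9 (log2 fold change -1.12 ± 0.48, adjusted p = 0.209). Gins1 had the smallest p in the other direction, at 1.91, 7.39, 3.71 and 3.53 and 2.68, 2.87, 1.53 and 2.47 (log2 fold change 0.77 ± 0.43, adjusted p = 0.309). The median over the 45 was 0.15, with 32 higher at day 7, and lay between -0.17 and 0.39 with 1 rat left out in turn. These comparisons share rats with those of day 3.

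Rats of 1 group were spread more widely at the later days. The coefficient of variation of a member between rats had a median of 21.8% and 16.9% at day 3 with the nerve intact and transected, 28.5% and 47.2% at day 7, and 73.6% and 28.3% at day 14. Rat 2 carried much of the 73.6%, which was 41.6% over the other 3 rats. Members tended to be high or low together in a rat. Rat 2 was the highest of the sensory nerve− group of day 7 in 43 members and rat 1 the lowest in 42, and rat 1 also had the largest sums of its group for skeletal muscle (30664) and muscle progenitor genes (8549). In the sensory nerve− group of day 14, rat 3, with the largest erythroid sum, was the lowest in 35. At day 3, rat 2 was the lowest of the sensory nerve+ group in 42 and rat 1 the highest of the sensory nerve− group in 37.

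The effect of the transection was asked at each day. At day 3 all 45 members had a higher fitted level with the nerve transected, by a median of 0.30 on the log2 scale or 1.23-fold, against -0.01 over all genes, and none passed the test. edgeR called 0 of 45 and 0% of all 14695 genes, and DESeq2 called 0. An unadjusted p under 0.05 was reached by 6 members, Kif11, Top2a, Nusap1, Foxm1, Cenpf and Ccne2, where 0.83% of all genes did. With DESeq2 it was reached by 9 members, and the share of all genes with DESeq2 is not given here. The groups did not overlap in 2 members, E2f8 and Ccna2, as in 0.878% of all genes. The 45 genes tend to be high or low together in a rat, so that their shared direction is far from 45 separate readings. Kif11 was 46.1, 41.2 and 55.6 CPM with the nerve intact and 78.9, 68.4, 62.04 and 52.6 with it transected (log2 fold change 0.44 ± 0.16, adjusted p = 1.00, unadjusted p = 0.0281). The highest sensory nerve+ rat lay above the lowest sensory nerve− rat. Top2a, at 107 to 132 against 127 to 194, had a 95% interval of 0.06 to 0.78, and Mki67, at 116 to 175 against 158 to 241, of -0.18 to 0.81 (log2). Over all 45 members the intervals reached from 0.640-fold to 2.22-fold. With 1 rat left out in turn, 41 to 45 members stayed higher and none was called.

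At day 7 the members were spread around 0, with 15 higher and 30 lower with the nerve transected and a median of -0.07. edgeR called 0 of 45 and 0% of all 14716 genes, DESeq2 called 0 of 45, and 0 members had an unadjusted p under 0.05, where 1.46% of all genes did. Mcm7 had the smallest p, at 32.3, 40.7, 42.7 and 35.4 CPM with the nerve intact and 34.6, 40.6, 31.8 and 30.2 with it transected (log2 fold change -0.15 ± 0.14, adjusted p = 1.00). Rrm2, the member with the smallest p among those higher after transection, was 14.7, 16.01, 17.4 and 17.3 against 6.23, 37.2, 18.2 and 22.4 (log2 fold change 0.35 ± 0.44, adjusted p = 1.00). The groups overlapped in all members. Leaving out 1 rat in turn moved the median between -0.37 and 0.12, with 3 to 40 members higher. The intervals over the 45 reached from 0.358-fold to 2.55-fold, and the separate table of the sensory nerve− rats cannot be told apart from transection here.

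At day 14 the fitted level was lower with the nerve transected in 43 of 45 members, by a median of -0.60, and 1 rat carried most of this. Without rat 2 of the sensory nerve+ group, 30 were lower and 15 higher, with a median of -0.08. edgeR called 0 of 45 and 0% of all 14610 genes, 1 member had an unadjusted p under 0.05, where 9.32% of all genes did, and DESeq2 called 0. E2f8 was that member, at 5.03, 22.3, 4.94 and 12.3 CPM with the nerve intact and 5.37, 2.48, 3.07 and 2.29 with it transected (log2 fold change -1.75 ± 0.56, adjusted p = 0.519), and without rat 2 it was -1.21 ± 0.46 (adjusted p = 0.192). The highest sensory nerve− rat exceeded the lowest 2 sensory nerve+ rats in E2f8. Tk1 had the smallest p among members higher after transection, at 22.2, 66.6, 35.8 and 52.9 against 49.8, 43.6, 111 and 81.9 (log2 fold change 0.69 ± 0.41, adjusted p = 0.555). Rat 2 lay above every sensory nerve− rat of day 14 in 44 members and rat 4 in 32.

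**Figure D4:**
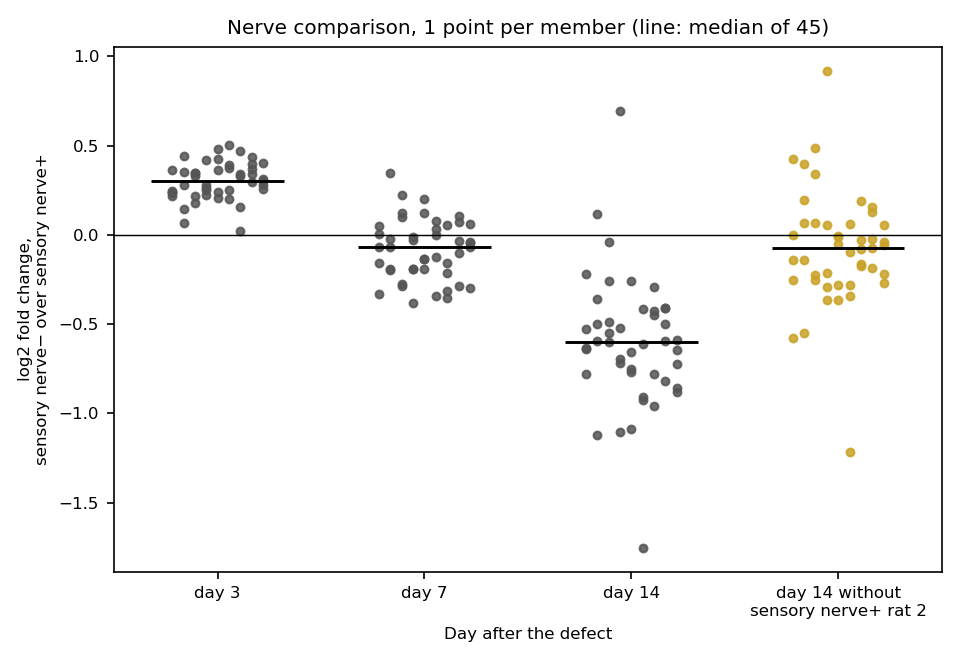
Log2 fold change of sensory nerve− over sensory nerve+ for each member (points) at each day, with the median of the 45 as a line, and at day 14 also without rat 2 of the sensory nerve+ group (yellow). All points of day 3 lie above 0 around a median of 0.30, those of day 7 lie on both sides, and those of day 14 move from a median of -0.60 to -0.08 when the rat is left out.

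Over all days, with the day in the model, 6 members had a higher fitted level after transection and 39 a lower one, with a median of -0.14 that became 0.06 without rat 2. edgeR called 0 of 45 and 0% of all 15426 genes, 0 members had an unadjusted p under 0.05, where 4.98% of all genes did, and DESeq2 called 0. E2f8 (log2 fold change -0.48 ± 0.34, adjusted p = 0.866, and -0.25 ± 0.27 without rat 2) and Tk1 (log2 fold change 0.25 ± 0.25, adjusted p = 0.878) had the smallest p in each direction. Whether the nerve difference changed with the day was tested by an interaction in a model of all 23 rats. For day 7 against day 3, edgeR called 0 of 45 and 0% of all 15858 genes, 0 had an unadjusted p under 0.05, where 1.03% of all genes did, DESeq2 called 0, and the median was -0.37. Tyms (log2 fold change -0.61 ± 0.39, adjusted p = 1.00) and Rrm2 (log2 fold change 0.07 ± 0.83, adjusted p = 1.00) had the smallest p in each direction. For day 14 against day 3, edgeR and DESeq2 called 0 of 45, 0% of all genes were called, 7 members had an unadjusted p under 0.05, where 6.49% of all genes did, and the median of -0.94 became -0.40 without rat 2, with 1 such member. E2f8 (log2 fold change -2.27 ± 0.66, adjusted p = 0.751, and -1.68 ± 0.58 without rat 2) and Tk1 (log2 fold change 0.46 ± 0.62, adjusted p = 0.884, and 0.72 ± 0.63 without rat 2) had the smallest p in each direction. In none of these comparisons of nerve was a gene of the inhibitor, G1, replication or mitotic lists called by edgeR, and 0 to 5 genes a list had an unadjusted p under 0.05.

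In the RAW264.7 macrophages, which grow as a line, the question was what CGRP changes in stimulated cells. The 45 members differed little between LPS and LPS+CGRP. limma called 0 of 45, where 0.0222% of all 13492 genes were called in either direction, and edgeR and DESeq2 on the reads recovered from the deposited signal also called 0. The fitted level was higher with CGRP in 34 members and lower in 11, by a median of 0.01 on the log2(CPM + 0.5) scale, and single differences lay between -0.05 and 0.08. The 95% intervals of all 45 lay between -0.11 and 0.17, that is from 0.926-fold to 1.12-fold. An unadjusted p under 0.05 was reached by 8 members, where 10.1% of all genes did, and all 8 were higher with CGRP.

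Cdc6 had the smallest p of the members. It lay on chromosome 11 of mm10, at 98907801 to 98923940 on the plus strand. Its LPS samples had a lowest value of 41.9, a median of 42.4 and a highest value of 44.1 CPM. The LPS+CGRP samples stood at 45.1, 45.9, 44.6, 44.3 and 44.2, a difference of 0.07 ± 0.02 or 4.95% (adjusted p = 0.218). Gins2 had the smallest p among those lower with CGRP, on chromosome 8 at 120578633 to 120589304 on the minus strand. Its LPS samples had a lowest value of 26.7, a median of 28.3 and a highest value of 29.4, and the LPS+CGRP samples stood at 27.1, 27.4, 27.2, 26.04 and 28.1 (log2 fold change -0.05 ± 0.03, adjusted p = 0.524). Mki67, on chromosome 7 at 135689784 to 135716361, had in LPS a lowest value of 270.3, a median of 294 and a highest value of 309.6, and with CGRP stood at 289.6, 327, 290.4, 298 and 333 (log2 fold change 0.07 ± 0.04, adjusted p = 0.550). Top2a, on chromosome 11 at 98992943 to 99024189, had in LPS a lowest value of 279.6, a median of 288 and a highest value of 306, and with CGRP stood at 295, 312, 302, 297 and 315 (log2 fold change 0.06 ± 0.02, adjusted p = 0.411). The groups overlapped in Gins2, Mki67 and Top2a. In Cdc6 they nearly met, with a highest LPS sample of 44.12 CPM and a lowest LPS+CGRP sample of 44.23. The share of all genes without overlap was not counted here. The spread between samples was small, with a median coefficient of variation over the members of 2.22% in LPS and 1.90% in LPS+CGRP. Of the lists outside the members, 0 of 10 inhibitors, 8 D cyclins and G1 kinases, 27 replication genes and 32 mitotic genes tested were called by limma. An unadjusted p under 0.05 was reached by 1, 1, 5 and 7, where 10.1% of all genes did. Cdkn1a (log2 fold change -0.05 ± 0.01, adjusted p = 0.281) had the smallest p of the inhibitors and Smc4, a condensin subunit (log2 fold change 0.07 ± 0.02, adjusted p = 0.204), that of the mitotic genes.

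**Figure D5:**
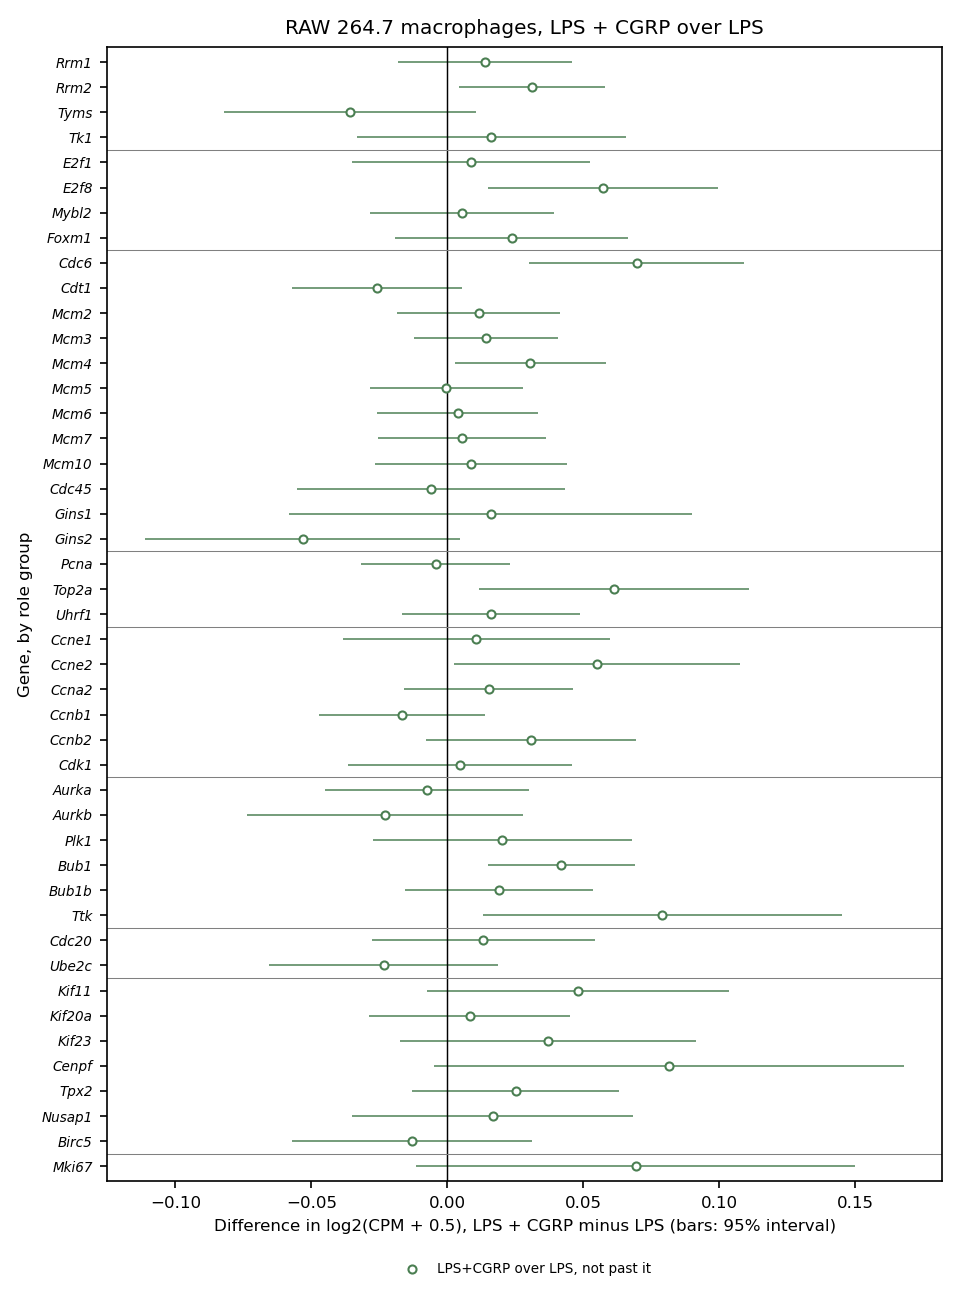
Difference in log2(CPM + 0.5), LPS+CGRP minus LPS, of each member in RAW264.7 macrophages (5 against 6 samples), with 95% intervals as bars. All points lie between -0.05 and 0.08, and none had an adjusted p under 0.05.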

How the data were processed

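RNA was sequenced from 23 rat tissue samples (DNBSEQ) and 11 RAW264.7 samples. For the rat, the authors deposited expected counts per gene, of which 37.0% were whole numbers, aligned with HISAT (the submitters' processing notes also name Bowtie2) to mRatBN7.2. The counter is not given in the sources used here. Values were rounded to whole counts before testing. The sensory nerve− group of day 7 was deposited in a table of its own. For RAW264.7, the authors trimmed reads with Cutadapt, aligned them to mm10 with STAR, counted them with featureCounts and deposited a normalized signal, in which every value above 0 was a whole number of reads (within 0.01 read) times 1 factor per run of 0.877 to 1.14. The 2 runs of each sample were summed and the deposited signal scaled to CPM.

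Rat groups were compared with edgeR 4.0.16 (R 4.3.3; TMM, filterByExpr, quasi-likelihood test, Benjamini-Hochberg adjustment over all genes tested), with the rats of both groups in each fit, the day as a term over all days, and all 23 rats for interactions. RAW264.7 was compared with limma 3.58.1 (trend) on log2(CPM + 0.5), since a signal is no count. Calls had an adjusted p under 0.05. The scripts were tested on simulated data. Alternatives were DESeq2 1.42.0, other scalings and filters, a replicate block, all rats in 1 fit, the pseudocount, recovered reads, and leaving out each sample in turn. Members and lists were chosen with earlier results of these data known. Values by sample were given for Mki67, Top2a, the member with the highest mean CPM of each role group and, in each comparison, the 3 members with the smallest p in each direction among those called, or the 1 in each direction where none was. Promoters were chosen by mean CPM in the licensing and cyclin groups, with Rrm2 and Cdc20. Mcm4 and Rrm2 had no entry, and Mcm7 was taken in place of Mcm4. No 2 samples agreed within sampling noise. Same-numbered rats were not tied by the labels, and their deviations correlated by -0.39 to 0.47.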

Additional observations from a re-analysis of the deposited data

Results flagged for a closer look

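Of 168 readings of 24 members in groups of 4 to 6 samples, 12 had 1 sample standing apart from the rest by Dixon's test at the 95% level. Chance gives about 1 in 20 groups, and the members of a sample are not independent of each other. With the nerve intact, rat 3 of day 7 stood above its group in Tyms (60.6 CPM), Cdc20 (29.1 CPM) and Mki67 (81.1 CPM), and rat 2 of day 14 in Gins2 (25.2 CPM). With the nerve transected, rat 1 of day 3 stood above its group in Cdc20 (70.2 CPM), and rat 2 of day 7 in Kif23 (26.0 CPM). At day 14 of the same nerve group, rat 1 stood above the others in Mcm4 (36.5 CPM), Pcna (62.1 CPM) and Mki67 (63.3 CPM), and rat 3 below them in Bub1 (12.3 CPM). In RAW264.7, Bub1 stood apart in LPS sample 6 (115.9 CPM) and in LPS+CGRP sample 4 (115.4 CPM).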

How the results depend on the processing

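With the nerve intact, the 27 members called at day 3 against day 7 became 41 with DESeq2, 7 with scaling by library total, 0 with a replicate block and 3 to 40 with 1 rat left out. The 43 with the nerve transected became 0 with the block and 0 to 44 with 1 rat left out. The 0 of day 3 against day 14 with the nerve intact became 7 with DESeq2, 13 with all 23 rats in 1 fit and 0 to 38 with 1 rat left out. The cause was not tested. The shares of all genes called with DESeq2 or with all 23 rats in 1 fit are not given here. The labels do not tie samples by replicate number, and in 0 of 10 comparisons was every correlation of same-numbered samples over 0.1. In groups this small, such correlations cannot show whether samples were paired. The block changed no other count of calls by over 1.5 times. All other counts of members called, 87 of 93 with all samples kept and 139 of 149 with 1 left out, stayed within 1.5 times. Scaling by library total moved the median of all genes from 0.05 to 0.42 at day 3 against day 14 after transection and from 0.03 to -0.41 for nerve at day 14. Differences of named members that were not called turned sign in places. With scaling by library total, Mki67 for nerve at day 7 went from 0.06 to -0.048 (-0.090 with the block), and the interactions of Rrm2 at day 7 from 0.07 to -0.093 and of Tk1 at day 14 from 0.46 to -0.24. With 1 rat left out, Kif20a, Mki67 and Top2a at day 7 against day 14 with the nerve intact ranged from -0.30 to 0.46, -0.99 to 0.0013 and -1.13 to 0.17, and Mki67 and Top2a with it transected from -0.15 to 0.53 and -0.33 to 0.34. For nerve at day 7, Mki67 ranged from -0.33 to 0.34, Rrm2 from -0.064 to 0.65 and Top2a from -0.80 to 0.12. Mki67 over all days ranged from -0.35 to 0.083, its interaction at day 7 from -0.66 to 0.030 and that of Rrm2 from -0.36 to 0.37. Leaving out rats for the lists outside the members was chosen after seeing the data.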

Other observations

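Entry into the cell cycle is driven by D cyclins and their kinases and held back by CDK inhibitors. Ccnd1, the main D cyclin, was 279.5 ± 246 CPM (mean ± SD, n = 4) at day 3 and 71.5 ± 20.5 (n = 4) at day 14 with the nerve transected (log2 fold change 2.002 ± 0.55, edgeR adjusted p = 0.0351). The 4 rats of day 3 ranged from 128 to 645, and those of day 14 from 51.1 to 92.2, so the groups did not overlap. The highest rat of day 3, rat 2, carried much of the mean, which was 158 ± 44.4 over the other 3 rats, and without it the difference was 1.18 ± 0.28 (adjusted p = 0.0408) or 2.27-fold. With 1 of the 8 rats left out in turn, Ccnd1 lost its call in 3 fits, those without rat 1, 3 or 4 of day 14. Rbl1, a pocket protein, was 57.9 ± 12.3 and 21.7 ± 4.92 (log2 fold change 1.44 ± 0.21, adjusted p = 0.00408), and Cdkn2c, which inhibits the kinases of the D cyclins, 28.1 ± 6.27 and 13.6 ± 2.91 (log2 fold change 1.07 ± 0.22, adjusted p = 0.0128). Rbl1 and Cdkn2c had the smallest p of the 13 inhibitors and pocket proteins. Of these 13, 3 were called higher and 3 lower at day 3, with a median of -0.59, where 14.6% and 8.89% of all genes were. Cdkn1a, the p53 target, was 61.0 ± 37.4 CPM at day 3, 232 ± 175 at day 7 and 56.7 ± 12.05 at day 14 with the nerve transected, and its difference of day 7 over day 14 did not pass the test (log2 fold change 2.02 ± 0.57, adjusted p = 0.118).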
